A study of Mus musculus with 12 samples.

Results

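Aminoacyl-tRNA synthetases attach each amino acid to its transfer RNA (tRNA), the step that supplies protein synthesis with charged tRNA. Vertebrate cells keep separate sets for the cytosol and for the mitochondria, both encoded in the nucleus. The mitochondrial enzymes carry a symbol that ends in 2, while the genes Gars and Kars supply both compartments. Several cytosolic enzymes sit in a multisynthetase complex, and many cytosolic genes are known targets of ATF4, the transcription factor of the amino acid response. The members described here are all rows whose symbol is a synthetase symbol of the form Aars, Aars1 or Aars2, with Eprs, Farsa and Farsb. This rule uses names alone and found 37 of the 35013 genes in the count table, of which 20 were cytosolic and 17 mitochondrial. All 37 passed the filter on low counts, as did 13502 genes in all.

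Poly-A RNA was sequenced from KP1, a mouse lung adenocarcinoma line by its labels (LUAD). All cells were kept in DMEM, plated in RPMI before treatment, and carried either an empty vector (EV) or NRF2 overexpression (NRF2 OE). NRF2 is the transcription factor that drives antioxidant genes. Each line was given the solvent DMSO or romidepsin, a histone deacetylase inhibitor, at 5 nM for 16 h. This gives 4 groups of 3 libraries, which the series calls biological replicates and which are named here by line, treatment and number, as in EV-DMSO 1 or NRF2-ROM 3. The labels do not give the promoter of the vector or say whether each line is 1 clone, so p-values measure the spread between these samples. In bulk RNA, fewer cells of a type and less RNA per cell cannot be told apart.

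Libraries held 16842824 to 28003010 estimated counts, of which the 37 genes took 0.819 to 1.18%. Nfe2l2, which encodes NRF2, was higher in DMSO-treated NRF2 cells (log2 1.58 ± 0.07, SE; edgeR adjusted p = 7.2e-11). Of 6 general epithelial markers 5 or 6 reached 1 CPM (the count relative to the TMM-scaled library total) in every group, but of 9 lung markers at most 2 did, and Nkx2-1 and Sftpc stayed at or under 0.246 CPM. Of 5 immune markers only Cd68, which also marks lysosomes, was above 1 CPM. It moved with romidepsin, and the summed immune markers went from 2.83 to 4.57 CPM in DMSO libraries to 48.2 to 70.3 CPM in romidepsin libraries, with Adgre1 and Cd3e under 0.1 CPM. The 6 fibroblast markers summed to 3.38 to 7.21 and 12.6 to 18.1 CPM, and the 3 endothelial markers to 4 to 10.1 and 5.55 to 8.28 CPM. NRF2-DMSO 3 stood apart: its root mean square log2 distance from its replicates was 0.465, against 0.255 to 0.350 in the other libraries, and 7.30% of its counts were mitochondrially encoded, against 4.84 to 6.35%. The part of these differences in the results below was not tested.

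Cytosolic synthetases were the more abundant set. Levels of different genes are compared per kilobase of the longest coding transcript of GENCODE M21 (GRCm38), in DMSO-treated EV cells (mean ± SD, n = 3). Gars, the glycine enzyme, measured 208.5 ± 11.5 CPM per kb, followed by Nars (asparagine) at 185 ± 4.99 and Kars (lysine) at 183 ± 9.91 CPM per kb. Nars and Kars did not differ beyond their spread. The lowest cytosolic gene, Wars (tryptophan), at 32.8 ± 1.75 CPM per kb, was still above the highest mitochondrial gene but one, Tars2 (threonine), at 26.9 ± 1.10 CPM per kb. The other mitochondrial genes ran down to 2.34 ± 0.0537 CPM per kb for Nars2.

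The exception was Lars2, the mitochondrial leucine enzyme (chromosome 9, 123366927 to 123462666, plus strand). It was listed at 1347 ± 147 CPM per kb, above every cytosolic gene, and made up 82.8 to 91.5% of the summed CPM of the mitochondrial set. Of the 31-base words in its longest coding transcript, 1.09% also occur in transcripts of other genes. The transcript annotation behind the deposited counts is not given in the sources used here, so whether all of these counts come from Lars2 transcripts was not settled, and every Lars2 level, share and fold change below carries that limit. Its values were 5792, 5299 and 4648 CPM in DMSO-treated EV cells, and 4285, 4427 and 2544 CPM in DMSO-treated NRF2 cells. With romidepsin they were 3915, 3497 and 3760 CPM in EV and 3683, 4257 and 4074 CPM in NRF2 cells. The lowest value belongs to the library that stood apart. A sum over the mitochondrial set is therefore mainly Lars2, and sums are given without it.

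Summed over the 20 cytosolic genes, the level was 5844 ± 194 CPM in EV and 5787 ± 115 CPM in DMSO-treated NRF2 cells, and 3936 ± 68.8 and 3770 ± 33.0 CPM with romidepsin (SD, n = 3). The 16 mitochondrial genes without Lars2 summed to 556 ± 16.4 and 549 ± 17.8 CPM with DMSO and to 441 ± 2.93 and 414 ± 2.90 CPM with romidepsin. No DMSO library overlapped a romidepsin library in either sum. The ratio of romidepsin to DMSO was 0.674 in EV and 0.651 in NRF2 cells for the cytosolic sum, and 0.793 and 0.754 for the mitochondrial sum. The mitochondrial sum was 9.20 to 9.89% of the cytosolic sum in the 6 DMSO libraries and 10.8 to 11.4% in the 6 romidepsin libraries.

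**Figure D1:**
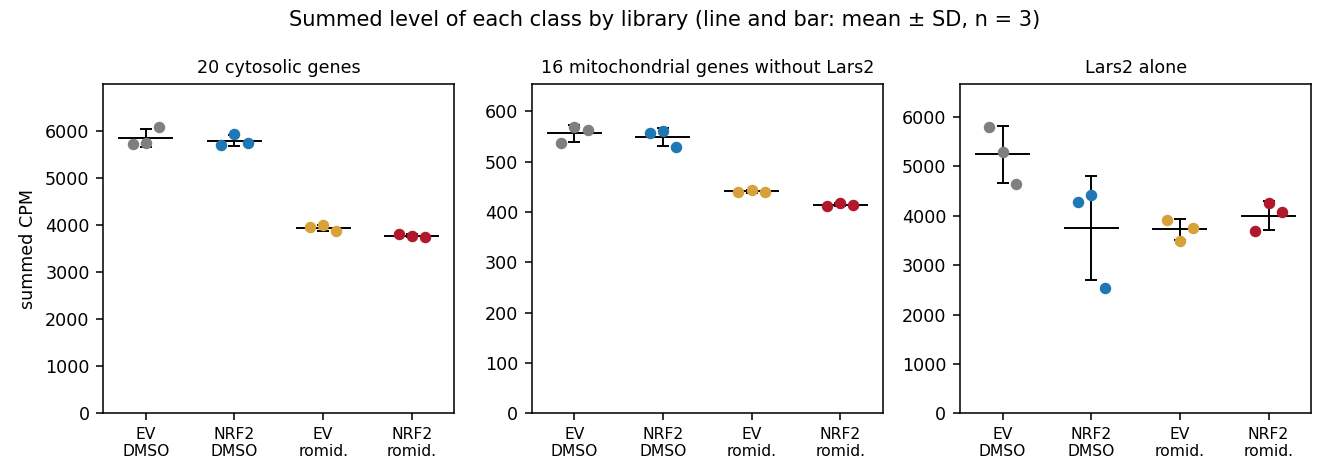
Summed CPM of the cytosolic genes, of the mitochondrial genes without Lars2, and of Lars2 alone, by group; points are libraries, lines and bars the mean ± SD of 3. Both sums are lower in every romidepsin library than in every DMSO library, while Lars2 spreads from 2544 to 4427 CPM within DMSO-treated NRF2 cells.

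The first question was how romidepsin changed the enzymes of each compartment. In EV cells 15 of 20 cytosolic genes fell and 2 rose, and the median log2 change was -0.65. Of the 17 mitochondrial genes 13 fell and 1 rose, with a median of -0.39. In all genes tested 76.5% were called (edgeR adjusted p under 0.05), 37.4% lower and 39.1% higher, with a median of 0.01. Among the 9238 genes that averaged 10 CPM or more 46.7% fell, with a median of -0.10. A fall of 2-fold or more was seen in 4 cytosolic genes (Vars, Iars, Gars and Tars) and in 1 mitochondrial gene (Yars2). Without EV-DMSO 3 the cytosolic genes that rose numbered 4. The mitochondrial genes that fell numbered 10 without EV-ROM 2.

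In NRF2 cells 15 cytosolic genes fell and 3 rose (median -0.76), and 12 mitochondrial genes fell and 2 rose (median -0.36). Of all genes 79.8% were called there, 39.3% lower and 40.5% higher, with a median of 0.02. Among the 9238 genes that averaged 10 CPM or more 48.4% fell, with a median of -0.13. Without NRF2-DMSO 1 or NRF2-ROM 1 the mitochondrial genes that rose numbered 1. Those that fell numbered 11 without NRF2-DMSO 2 and 13 without NRF2-DMSO 3. The same 15 cytosolic genes fell in both lines: those for alanine, cysteine, aspartate, glutamate with proline, glycine, histidine, isoleucine, leucine, methionine, asparagine, serine, threonine, valine and tyrosine, and Farsa, a subunit of the phenylalanine enzyme. Of the mitochondrial genes 11 fell in both lines. No member was called in opposite directions in the lines.

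**Figure D2:**
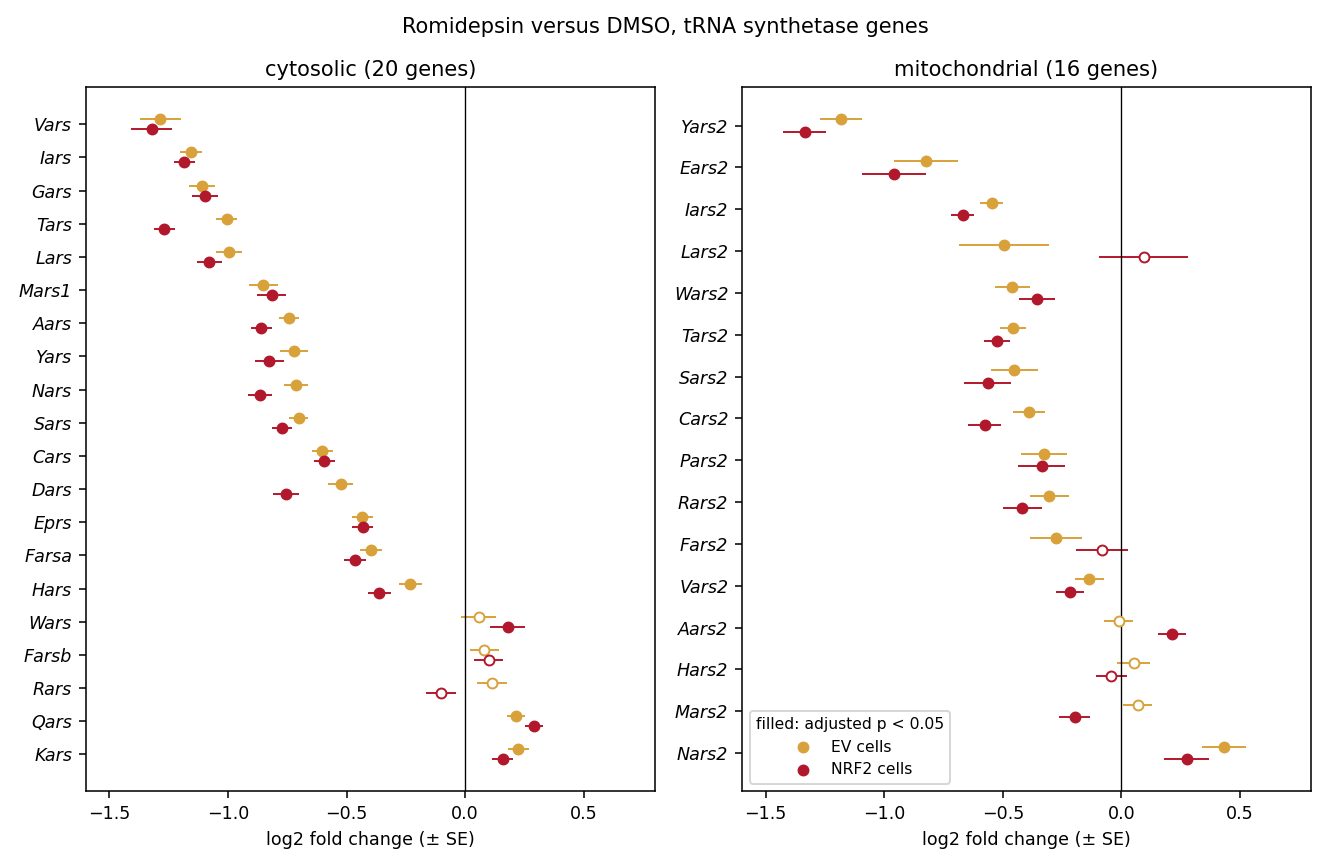
Log2 fold change of romidepsin over DMSO (± SE, horizontal axis) for each cytosolic gene (left) and for 16 mitochondrial genes (right), in EV and NRF2 cells, ordered by the change in EV cells; filled points passed an adjusted p of 0.05. Values run from -1.28 (Vars) to 0.22 (Kars) among cytosolic and from -1.18 (Yars2) to 0.43 (Nars2) among mitochondrial genes in EV cells.

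Vars, which charges valine (chromosome 17, 35000987 to 35016322, plus strand), fell most among cytosolic genes. It measured 437, 464 and 451 CPM in DMSO-treated EV cells against 190, 182 and 182 CPM with romidepsin. In NRF2 cells it measured 469, 443 and 348 CPM with DMSO against 166, 179 and 159 CPM with romidepsin. The groups did not overlap in either line, although the library that stood apart was the lowest of the DMSO libraries. The fall was 2.44-fold in EV (log2 -1.28 ± 0.09, SE; edgeR adjusted p = 6.1e-09) and 2.50-fold in NRF2 cells (-1.32 ± 0.09; 3.5e-09).

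Iars, for isoleucine (chromosome 13, 49682100 to 49734267, plus strand), fell nearly as far. It went from 412, 412 and 439 to 189, 194 and 184 CPM in EV cells, and from 386, 402 and 421 to 176, 178 and 178 CPM in NRF2 cells. These are log2 changes of -1.16 ± 0.05 and -1.18 ± 0.05 (edgeR adjusted p = 1.9e-13 and 9.0e-14). Of its 31-base words 17.4% are shared with the pseudogene Gm4849. Gars (chromosome 6, 55038007 to 55079500, plus strand) fell by 2.16-fold and 2.14-fold (edgeR adjusted p = 4.4e-12 and 3.5e-12), and Lars, for leucine, by 1.995-fold and 2.11-fold (1.7e-11 and 3.6e-12).

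Tars, for threonine (chromosome 15, 11382301 to 11399665, minus strand), measured 329, 329 and 349 CPM in EV cells under DMSO and 170, 170 and 162 CPM with romidepsin. In NRF2 cells it went from 262, 276 and 284 to 117, 112 and 113 CPM. Each of the 4 groups was separate from the other 3, with EV and DMSO highest and NRF2 and romidepsin lowest. The fall was 2.01-fold in EV (edgeR adjusted p = 1.1e-12) and 2.41-fold in NRF2 cells (3.8e-14).

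Not all cytosolic genes fell. Kars, for lysine (chromosome 8, 111993443 to 112011323, minus strand), rose from 380, 400 and 424 to 468, 468 and 471 CPM in EV cells and from 400, 419 and 405 to 456, 462 and 449 CPM in NRF2 cells. Qars, for glutamine (chromosome 9, 108507706 to 108515941, plus strand), rose from 188, 192 and 194 to 223, 220 and 222 CPM in EV and from 196, 202 and 202 to 244, 241 and 248 CPM in NRF2 cells. Both rises were small and had no overlap between libraries: log2 0.22 ± 0.04 and 0.16 ± 0.04 for Kars (edgeR adjusted p = 1.8e-04 and 0.0032), and 0.21 ± 0.04 and 0.29 ± 0.04 for Qars (6.3e-05 and 1.6e-06). Farsb, the other subunit of the phenylalanine enzyme, did not pass (log2 0.08 and 0.10; edgeR adjusted p = 0.23 and 0.14), whereas Farsa fell (log2 -0.40 and -0.46; 5.3e-07 and 5.7e-08).

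Wars, for tryptophan, passed only in NRF2 cells. It measured 91.1, 89.1 and 98.5 CPM in DMSO-treated EV cells, 97.3, 95.6 and 97.3 CPM in romidepsin-treated EV cells, 121, 133 and 102 CPM in DMSO-treated NRF2 cells and 136, 138 and 129 CPM in romidepsin-treated NRF2 cells. DMSO and romidepsin libraries overlapped in both lines. The change in NRF2 cells (log2 0.18 ± 0.07; edgeR adjusted p = 0.032) did not pass without NRF2-DMSO 3, NRF2-ROM 1 or NRF2-ROM 2, with no filter on low counts, or with the 2 groups fitted alone. The interaction test gave an adjusted p of 0.47. Rars, for arginine, passed in neither line (log2 0.11 and -0.10; edgeR adjusted p = 0.12 and 0.15).

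**Figure D3:**
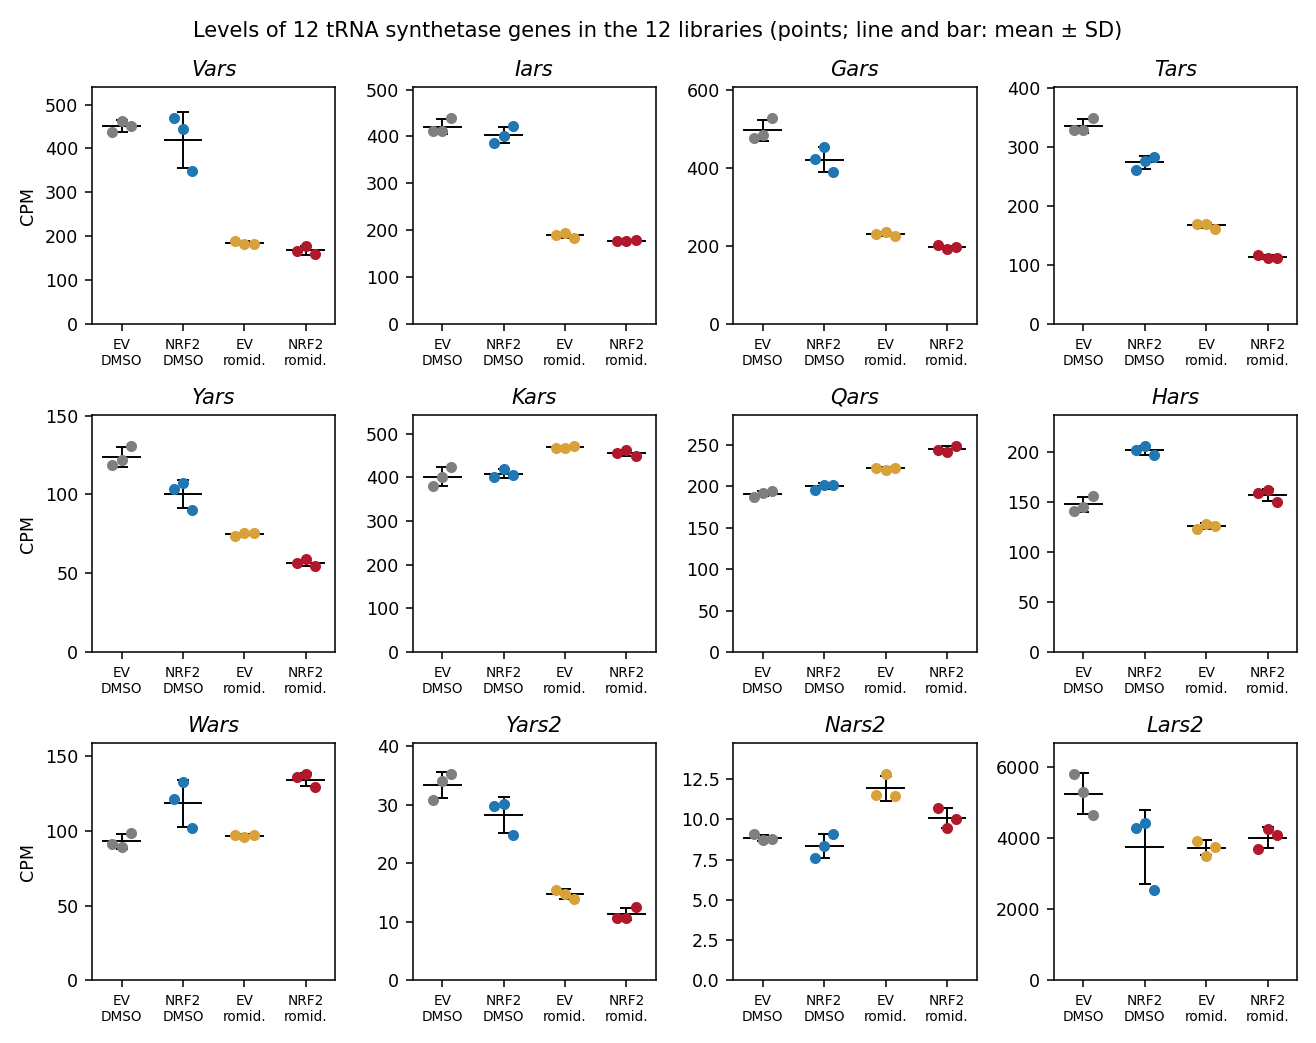
Level in CPM of 12 genes in each of the 12 libraries; points are libraries and lines with bars are the mean ± SD of 3. Vars, Iars, Gars, Tars, Yars and Yars2 are lower in all romidepsin libraries than in the DMSO libraries of the same line, Kars, Qars and Nars2 are higher, and Hars and Wars are higher in NRF2 cells under either treatment.

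Members of the multisynthetase complex were compared with those outside it. Of the 8 cytosolic genes in the complex 5 fell in each line, with medians of -0.48 in EV and -0.59 in NRF2 cells, and Kars and Qars, the genes that rose in both lines, are among them. Of the 12 genes outside it 10 fell in each line, with medians of -0.71 and -0.80. In the whole cytosolic set 75% fell in each line, and over all genes tested 37.4% fell in EV and 39.3% in NRF2 cells. Differences between subsets were not tested. By catalytic fold, class I genes (9, median -0.72 in EV cells) and class II genes (10, median -0.61) fell in 6 and 8 cases. The scaffold proteins of the complex did not move together. Aimp1 rose in EV cells (log2 0.22 ± 0.06; edgeR adjusted p = 0.0018), Aimp2 did not pass (log2 0.10; 0.14), and Eef1e1 fell (-0.69 ± 0.09; 2.0e-06). In NRF2 cells the values were log2 0.10, -0.05 and -0.90 (edgeR adjusted p = 0.11, 0.43 and 6.6e-08).

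Promoter windows of RefSeq (GRCm38.p6; 250 bases before and 50 after the transcript start) were available for 27 members, 13 cytosolic and 14 mitochondrial. They were searched on both strands for TGATGNAA, the form of the C/EBP-ATF response element through which ATF4 is known to act on synthetase genes. It occurs in the window of 5 cytosolic members (Aars, Gars, Iars, Tars and Yars) and of 0 mitochondrial members, and in 4.51% of all 27025 genes with a window. A site of each is shown because these 5 genes fell in both lines. For Gars and Tars the 150 bases before the start are printed (chr6:55037851-55038000, plus strand, and chr15:11399659-11399808, minus strand), and Kars (chr8:112011355-112011504, minus strand) and Yars2 (chr16:16302815-16302964, plus strand) are given as members without a match, a cytosolic gene that rose and the mitochondrial gene that fell most. Sequences run 5′ to 3′ toward the gene, with the match in capitals. All matches shown but that of Yars are on the opposite strand and so appear here as the reverse complement.
Gars: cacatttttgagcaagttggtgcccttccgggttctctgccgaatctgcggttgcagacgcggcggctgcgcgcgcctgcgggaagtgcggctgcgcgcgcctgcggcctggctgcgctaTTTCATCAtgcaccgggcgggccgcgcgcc
Tars: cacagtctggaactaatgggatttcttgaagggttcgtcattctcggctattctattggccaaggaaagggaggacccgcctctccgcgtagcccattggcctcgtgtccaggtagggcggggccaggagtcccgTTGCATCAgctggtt
Kars: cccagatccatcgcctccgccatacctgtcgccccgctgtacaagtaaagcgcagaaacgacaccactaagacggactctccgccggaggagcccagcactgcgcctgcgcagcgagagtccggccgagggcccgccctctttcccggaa
Yars2: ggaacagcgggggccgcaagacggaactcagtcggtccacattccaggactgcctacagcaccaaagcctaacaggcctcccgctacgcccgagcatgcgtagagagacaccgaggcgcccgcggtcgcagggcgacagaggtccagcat

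The matches of Gars and Tars begin 30 and 15 bases before the start. The match of Aars shown here lies 10 bases into the transcript (chr8:111033841-111033868), that of Iars 8 bases in (chr13:49682127-49682154) and that of Yars 4 bases in (chr4:129189896-129189923). These 3 genes are on the plus strand, and the coordinates and letters are those of that strand. They are printed with 10 bases on each side.
Aars: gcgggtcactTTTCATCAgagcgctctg
Iars: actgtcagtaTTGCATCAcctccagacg
Yars: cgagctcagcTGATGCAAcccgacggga

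The 5 cytosolic members with a match fell in both lines, by log2 -1.16 to -0.72 in EV cells (median -1.01). The 8 with a window and no match ranged from -0.85 to 0.22 (median -0.42), with 5 lower and 2 higher. In NRF2 cells the medians were -1.10 and -0.45. Vars, Lars and Nars, which fell by 2.44-, 1.995- and 1.64-fold in EV cells, have no window in the table, nor do Cars, Hars, Hars2, Pars2, Rars and Wars, among others. A match is a string of letters and not a measured site. The core of the antioxidant response element that NRF2 binds, TGACNNNGC, was found for 3 cytosolic members (Aars, Iars and Mars1) and 3 mitochondrial members (Aars2, Lars2 and Nars2), and for 14.0% of all genes.

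Levels of Atf4 itself and of most listed genes of the amino acid response moved in the same direction as most synthetases. Whether the changes of Atf4 and of the synthetases are linked was not tested. Of the 10 genes on the list of that response 8 fell and 1 rose in EV cells (median -0.94), and 7 fell and 1 rose in NRF2 cells (median -1.19). Over all genes tested 37.4% fell and 39.1% rose in EV cells, and 39.3% fell and 40.5% rose in NRF2 cells. Among genes that averaged 10 CPM or more 46.7% fell in EV and 48.4% in NRF2 cells. Atf4 fell by log2 -1.53 ± 0.08 and -1.89 ± 0.08 (edgeR adjusted p = 5.1e-11 and 3.4e-12), and Asns, asparagine synthetase, by -1.13 ± 0.06 and -1.26 ± 0.06 (5.4e-12 and 8.6e-13). Cebpb, another transcription factor on the list, was the gene that rose (log2 0.44 and 0.66). The 5 cytosolic elongation factors fell in 4 cases and rose in 1 in each line: Eef1a1 fell by log2 -0.52 and -0.69, and Eef1d rose by 0.37 and 0.41 (edgeR adjusted p of 3.2e-07 or less).

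Among mitochondrial enzymes Yars2, for tyrosine (chromosome 16, 16302965 to 16309640, plus strand), fell most. It measured 30.9, 34.1 and 35.2 CPM in DMSO-treated EV cells against 15.5, 14.8 and 13.9 CPM with romidepsin, and 29.9, 30.1 and 24.8 against 10.7, 10.7 and 12.5 CPM in NRF2 cells. DMSO and romidepsin did not overlap, and the fall was 2.27-fold (edgeR adjusted p = 1.2e-09) and 2.52-fold (2.6e-10). Ears2, the mitochondrial glutamate enzyme, went from 8.92, 11.0 and 9.68 to 6.24, 5.27 and 5.19 CPM in EV cells and from 9.98, 10.2 and 7.27 to 4.82, 5.03 and 4.28 CPM in NRF2 cells. That is a fall of 1.77-fold and 1.95-fold (edgeR adjusted p = 2.2e-05 and 4.0e-06), again with no overlap.

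Ears2 has a further role, since mitochondria have no glutamine enzyme: it loads glutamate on the glutamine tRNA, and the amidotransferase of Qrsl1, Gatb and Gatc converts it. All 3 subunit genes fell in both lines. Qrsl1 fell by log2 -0.90 ± 0.09 and -0.98 ± 0.09 (edgeR adjusted p = 4.7e-08 and 1.3e-08), Gatb by -0.44 and -0.47 (2.3e-04 and 7.9e-05), and Gatc by -0.27 and -0.50 (0.0072 and 3.7e-05). Mtfmt, which formylates the initiator methionyl-tRNA, did not pass (log2 0.11 and 0.06; edgeR adjusted p = 0.27 and 0.53).

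Nars2, for asparagine (chromosome 7, 96951505 to 97064758, plus strand), went the other way. It rose from 9.08, 8.71 and 8.76 to 11.5, 12.8 and 11.5 CPM in EV cells and from 7.57, 8.33 and 9.09 to 10.7, 9.49 and 10.0 CPM in NRF2 cells. The libraries did not overlap in either line (log2 0.43 ± 0.09 and 0.28 ± 0.09; edgeR adjusted p = 4.1e-04 and 0.013). The call in NRF2 cells did not pass without NRF2-DMSO 1 or NRF2-ROM 1, or with no filter on low counts. Aars2, for alanine, measured 25.6, 27.2 and 27.3 CPM in EV cells under DMSO and 27.2, 26.4 and 26 CPM with romidepsin, which overlap (edgeR adjusted p = 0.88). In NRF2 cells it went from 26.9, 27.6 and 26 to 29.9, 33.1 and 30.2 CPM, with no overlap (log2 0.21 ± 0.06; 0.0034), and the interaction did not pass (0.086).

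Some calls of the mitochondrial set were less secure. Vars2 measured 81.1, 85.6 and 84.0 CPM in EV cells under DMSO and 73.9, 75.2 and 79.1 CPM with romidepsin (log2 -0.14 ± 0.06; edgeR adjusted p = 0.049). This call was lost under 14 of 20 alternatives, among them leaving out EV-DMSO 2 or EV-DMSO 3, EV-ROM 1 or EV-ROM 2, NRF2-DMSO 2, or any NRF2-ROM library. The fall of Lars2 in EV cells (log2 -0.49 ± 0.19; edgeR adjusted p = 0.038) was lost under 9 of 20, among them leaving out EV-DMSO 1 or EV-DMSO 2, any EV-ROM library, or NRF2-ROM 3. In NRF2 cells Lars2 did not pass (log2 0.09; 0.66). The fall of Fars2 in EV cells (log2 -0.28 ± 0.11; edgeR adjusted p = 0.029) was lost under 5 of 20, among them leaving out EV-DMSO 3 or EV-ROM 2. That of Mars2 in NRF2 cells (log2 -0.20 ± 0.07; edgeR adjusted p = 0.011) was lost under 4 of 20, among them leaving out NRF2-DMSO 2. Iars2 fell by 1.46-fold and 1.59-fold (edgeR adjusted p = 9.7e-09 and 4.9e-10), and 36.8% of its 31-base words are shared with Rab3gap2, whose gene overlaps it on the opposite strand.

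Other nuclear genes for mitochondrial tRNA and translation were mixed. Among all genes tested 37.4% fell and 39.1% rose in EV cells, and 39.3% fell and 40.5% rose in NRF2 cells. Of 12 tested genes for tRNA processing and modification 7 fell and 2 rose in EV cells and 8 fell and 2 rose in NRF2 cells. Pus1, a pseudouridine synthase, fell by log2 -1.02 ± 0.06 and -1.44 ± 0.06 (edgeR adjusted p = 6.9e-11 and 7e-13), and Gtpbp3, which modifies the wobble base, rose by 0.43 ± 0.07 and 0.63 ± 0.07 (3.4e-05 and 3.5e-07). Of 10 mitochondrial translation factors 4 fell and 1 rose in EV and 6 fell and 1 rose in NRF2 cells. Tufm, the elongation factor that delivers charged tRNA, was the one that rose (log2 0.25 and 0.44; edgeR adjusted p = 7.4e-04 and 1.4e-06).

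The enzymes of both compartments were then set side by side by amino acid, which gives 18 pairs since Eprs and Fars2 each enter 2 pairs. In EV cells both genes fell in 11 pairs, the cytosolic gene fell and its partner did not in 4, and the reverse held in 3. Since 75% of cytosolic and 76.5% of mitochondrial genes fell there, many pairs would be lower in both without any tie between partners. Over all genes tested 37.4% fell. The cytosolic change was the lower one in 13 pairs in EV and in 12 pairs in NRF2 cells. Calls were opposite in 1 pair in EV cells (Nars fell by 1.64-fold and Nars2 rose by 1.35-fold) and in 3 pairs in NRF2 cells (those of asparagine and alanine, and Wars with Wars2, which fell by log2 -0.36). The mitochondrial change was the lower one by most for tryptophan (Wars log2 0.06, Wars2 -0.46 in EV cells), followed by tyrosine. Yars went from 118, 122 and 131 to 73.9, 75.4 and 75.5 CPM in EV cells (log2 -0.72 ± 0.06), against -1.18 ± 0.09 for Yars2. Differences between the genes of a pair were not tested.

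**Figure D4:**
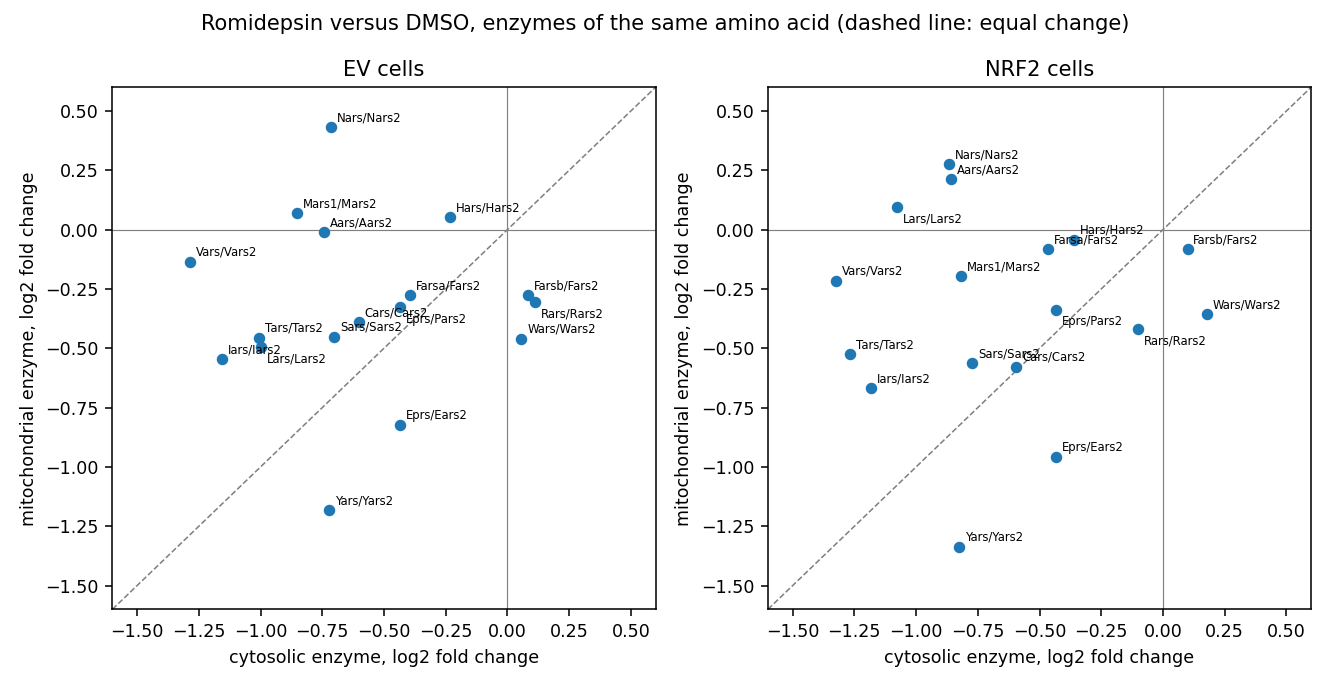
Log2 fold change of romidepsin over DMSO of the mitochondrial enzyme (vertical axis) against that of the cytosolic enzyme (horizontal axis) of the same amino acid, in EV and NRF2 cells; the dashed line marks equal change. Of the 17 pairs plotted 12 lie above the line in each of EV and NRF2 cells, and Wars with Wars2 lies farthest below it in both.

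Eprs, which charges both glutamate and proline in the cytosol, and Cars, for cysteine, show the middle of the cytosolic range. Eprs went from 391, 369 and 397 to 295, 285 and 276 CPM in EV cells and from 352, 367 and 363 to 273, 258 and 271 CPM in NRF2 cells (log2 -0.43 ± 0.04 in each; edgeR adjusted p = 8.4e-08 and 7.4e-08). Cars went from 198, 199 and 204 to 132, 136 and 128 CPM and from 184, 183 and 173 to 121, 122 and 115 CPM (log2 -0.60 ± 0.04 and -0.59 ± 0.04; edgeR adjusted p = 8.3e-10 and 7.9e-10). No library with DMSO overlapped one with romidepsin in the same line.

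The second question was how NRF2 overexpression changed the enzymes. With DMSO 4 of 20 cytosolic genes were higher and 5 lower in NRF2 than in EV cells, and 1 of 17 mitochondrial genes was higher and 2 lower. These are 20% and 25% of the cytosolic and 5.88% and 11.8% of the mitochondrial genes, while of all genes 36.3% were called, 19.3% higher and 16.9% lower. Medians were -0.03 and -0.09, against -0.01 over all genes. No member changed 2-fold. The mitochondrial genes lower numbered 3 without EV-DMSO 1 and 1 without EV-DMSO 2, EV-DMSO 3 or NRF2-DMSO 3; those higher numbered 2 without NRF2-DMSO 1 or NRF2-DMSO 3.

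Hars and Hars2, the histidine enzymes, were both higher. Their genes start head to head on chromosome 18 (Hars, 36766528 to 36783205, minus strand; Hars2, 36783008 to 36792562, plus strand) and share 8.42% of the 31-base words of Hars, so their counts may not be fully separate. Hars measured 141, 145 and 156 CPM in EV and 202, 205 and 196 CPM in DMSO-treated NRF2 cells. Hars2 measured 26, 27.3 and 26.9 CPM and 33.7, 34.8 and 28.8 CPM. Neither gene had overlapping libraries, with log2 differences of 0.45 ± 0.05 and 0.29 ± 0.07 (edgeR adjusted p = 9.3e-07 and 0.0029).

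Wars was higher in NRF2 cells (log2 0.35 ± 0.07; edgeR adjusted p = 0.0012), as were Lars (0.27 ± 0.05; 6.3e-04) and Nars (0.27 ± 0.05; 3.8e-04). Yars measured 118, 122 and 131 CPM in EV and 103, 107 and 90.3 CPM in NRF2 cells, without overlap (log2 -0.30 ± 0.06; 5.9e-04), and Tars was lower by a like amount (-0.29 ± 0.04; 5.2e-05). Gars, Aars and Cars were the other cytosolic genes lower (log2 -0.24, -0.17 and -0.16; edgeR adjusted p = 0.0022, 0.0046 and 0.0095). Of the 5 cytosolic members with TGATGNAA, 4 were lower (Tars, Yars, Gars and Aars) and Iars did not pass (log2 -0.06; 0.29). Of the 8 with a window and no match 0 were called by edgeR, while 16.9% of all genes were lower and 19.3% higher. Hars, Wars, Lars, Nars and Cars, the other cytosolic genes called, have no window, so these counts leave them out. With romidepsin 4 of the 5 were lower in NRF2 cells, and of the 8 without a match 1 was higher and 2 lower. Atf4 did not pass (log2 -0.11; 0.26), and Asns was lower (-0.27; 9.4e-04).

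Among mitochondrial genes Mars2, for methionine (chromosome 1, 55237177 to 55248470, plus strand), measured 31.8, 32.2 and 30.9 CPM in EV and 24.5, 27.3 and 25.8 CPM in DMSO-treated NRF2 cells. The libraries did not overlap (log2 -0.29 ± 0.06; edgeR adjusted p = 0.0019). Yars2 was also lower (log2 -0.24 ± 0.08; 0.034), a call lost without EV-DMSO 2 or EV-DMSO 3, without NRF2-DMSO 3, with the 2 groups fitted alone, or with a replicate block. Lars2 did not pass in edgeR (log2 -0.48 ± 0.19; 0.078) but did in DESeq2.

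With romidepsin 4 cytosolic genes were higher and 7 lower in NRF2 than in EV cells, and 2 mitochondrial genes were higher and 6 lower. Of all genes 45.4% were called, 23% higher and 22.4% lower. The cytosolic genes lower numbered 12 without NRF2-DMSO 3 and 4 without EV-ROM 2. The mitochondrial genes higher numbered 1 without EV-ROM 2, EV-ROM 3, NRF2-ROM 1 or NRF2-ROM 3.

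Among cytosolic genes that were lower, Tars differed most, with 170, 170 and 162 CPM in EV and 117, 112 and 113 CPM in NRF2 cells (log2 -0.56 ± 0.05; edgeR adjusted p = 5.3e-08), followed by Yars, with 73.9, 75.4 and 75.5 CPM and 56.4, 58.8 and 54.5 CPM (-0.40 ± 0.06; 3.9e-05). Mars2 measured 32.4, 35.7 and 31.2 CPM and 22.1, 22.7 and 23.0 CPM (log2 -0.55 ± 0.06; 2.7e-06). None of these genes had overlapping libraries. Hars measured 123, 128 and 126 CPM in EV and 158, 161 and 150 CPM in NRF2 cells, and Hars2 28.4, 27.6 and 27.1 CPM and 31.5, 30.6 and 32.9 CPM, again separate. Wars and Hars were higher in NRF2 cells (log2 0.47 ± 0.07 and 0.32 ± 0.05; 6.2e-05 and 3.8e-05), as were Aars2 and Hars2 (0.23 ± 0.06 and 0.19 ± 0.07; 0.0042 and 0.026). The call of Hars2 was lost without EV-ROM 2, EV-ROM 3, NRF2-ROM 1 or NRF2-ROM 3. The comparisons share libraries with those above, so their values are given side by side only.

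**Figure D5:**
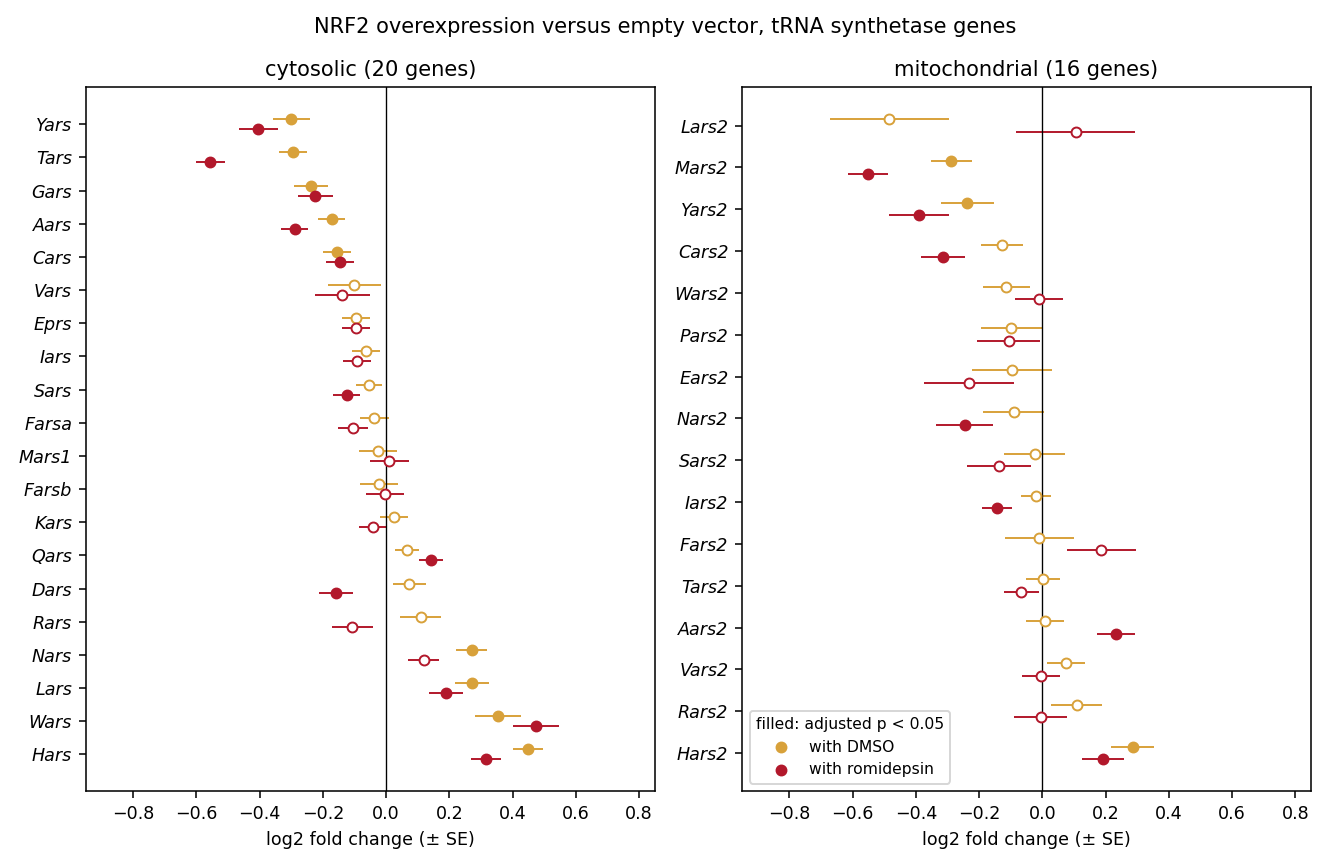
Log2 fold change of NRF2 over EV cells (± SE, horizontal axis) for each cytosolic gene (left) and for 16 mitochondrial genes (right), with DMSO and with romidepsin, ordered by the difference with DMSO; filled points passed an adjusted p of 0.05. All values lie between -0.56 and 0.47, with Tars and Mars2 lowest with romidepsin and Hars highest with DMSO.

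The third question was whether romidepsin acted differently in the lines. The interaction was called for 2 of 20 cytosolic genes and 1 of 17 mitochondrial genes, all with a stronger fall in NRF2 cells, and for 0 genes in the other direction in edgeR. Of all genes 15.8% were called, 10.2% lower and 5.53% higher. The romidepsin change was the lower one in NRF2 cells for 13 of 20 cytosolic and 13 of 17 mitochondrial genes. Median log2 differences were -0.07 for cytosolic and -0.11 for mitochondrial genes. Over all genes tested the median was also below 0, at -0.02, and it was -0.03 among those that averaged 10 CPM or more. The cytosolic genes called were Tars (log2 difference -0.26 ± 0.06; edgeR adjusted p = 0.0088) and Dars, for aspartate in the cytosol (-0.23 ± 0.08; 0.047). Dars went from 115, 112 and 115 to 76.7, 82.2 and 79.1 CPM in EV and from 110, 122 and 129 to 71.2, 70.2 and 72.1 CPM in NRF2 cells. DMSO and romidepsin libraries of Dars were separate in each line. In the cytosolic set 5 genes were called without NRF2-DMSO 3. The call of Dars was lost without any of 10 libraries (all but NRF2-DMSO 1 and NRF2-DMSO 3), which leaves 1 cytosolic gene, Tars. The mitochondrial count was 0 by edgeR without EV-DMSO 2 or NRF2-DMSO 2, EV-ROM 1 or EV-ROM 2, or NRF2-ROM 2 or NRF2-ROM 3. It was 2 without NRF2-DMSO 1, NRF2-DMSO 3 or EV-ROM 3.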

How the data were processed

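Poly-A libraries of KP1 cells were made with Trizol and Illumina TruSeq chemistry, per the labels' protocols. The submitters' processing notes list kallisto 0.44.0 and bcl2fastq 2.19, the build GRCm38, and DESeq2 with no version. The first deposited table holds estimated counts per symbol, whole numbers in 100% of cases. The second deposited table holds a normalized signal, which equals the count over 1 factor for each library. Genes were tested on the counts with edgeR 4.0.16 (TMM, default filter on the 4 groups, robust quasi-likelihood, two-sided, 8 residual degrees of freedom) in 1 fit of 12 libraries. P-values were adjusted by Benjamini-Hochberg over 13502 genes and called under 0.05. The SE is the log2 fold change (prior count 0.125) divided by the square root of F. Other scalings, no filter, DESeq2 1.42.0, limma-trend 3.58.1 on log2(normalized value + 1), compared groups alone, a replicate block and leaving out each library were alternatives, and the fit was tested on simulated data. Positions come from GENCODE M21 by symbol (37 matched, 1 through a synonym) and promoters from RefSeq. kallisto divides reads that fit several genes, so counts of genes that share words depend on that division. Members and lists were chosen with earlier results of these data known. All members could be named. Values in every library are given for the 2 highest and lowest called changes of each class and comparison, for called interactions, and for Cars and Eprs; those of Lars2 were added after its values were seen. Of companion lists up to 4 called genes, or all of a short list, could be named. Some items are not reported here by name, though counts over the set include them.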

Additional observations from a re-analysis of the deposited data

Results flagged for a closer look

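For Tars and Dars the romidepsin effect differed between the lines by the interaction test of edgeR. The difference, NRF2 minus EV cells on the log2 scale, was -0.26 for Tars (adjusted p = 0.0088) and -0.23 for Dars (0.047). Over the 19 alternatives the value for Dars ranged from -0.30 to -0.20, with 14 calls lost. Tars kept its call under all 19.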

How the results depend on the processing

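The count of cytosolic genes lower with romidepsin was 15 in EV cells whichever library was left out and 15 to 16 in NRF2 cells, and no call of a member reversed under the alternatives. The mitochondrial count was less steady, at 10 to 13 in EV cells and 11 to 13 in NRF2 cells. Upper-quartile factors moved the median of all genes by romidepsin from 0.01 in EV and 0.02 in NRF2 cells to 0.12 in both, and library size alone to 0.131 and 0.155, with cytosolic medians of -0.541 and -0.655 and of -0.532 and -0.623. Under both scalings 5 cytosolic and 3 mitochondrial genes were higher in EV cells in place of 2 and 1. Mitochondrial medians were -0.279 in EV and -0.246 in NRF2 cells with upper-quartile factors, and -0.269 and -0.215 with library size alone. With library size alone the calls of Fars2, Lars2, Pars2 and Vars2 as lower in EV cells were lost. Without a filter 1 mitochondrial gene was higher with romidepsin in NRF2 cells, and 0 were called lower in the interaction by edgeR. With the compared groups alone 12 cytosolic genes were lower by NRF2 with romidepsin, and 1 mitochondrial gene with DMSO. With RLE factors, library size alone or limma-trend 1 cytosolic gene was called in the interaction. The replicate block also gave 1 there and 1 mitochondrial gene lower by NRF2 with DMSO. Replicate numbers did not pair the libraries (correlations of deviations -0.123 to 0.0625). Leaving out 1 library gave these ranges: higher with romidepsin, 2 to 4 cytosolic genes in EV and 1 to 2 mitochondrial genes in NRF2 cells; by NRF2 with DMSO, 1 to 2 mitochondrial genes higher and 1 to 3 lower; by NRF2 with romidepsin, 4 to 12 cytosolic genes lower and 1 to 2 mitochondrial genes higher; in the interaction, 1 to 5 cytosolic and 0 to 2 mitochondrial genes lower, and 465 to 921 of all genes higher and 959 to 2127 lower. A floor of 3 counts corresponds to 0.105 to 0.182 CPM in a library and covers counting error only. All members were above it, with 4.28 CPM as the lowest value (Ears2).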

Other observations

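Genes related to the synthetases but outside the naming rule were split in direction under romidepsin. Of 8 tested factors for editing, selenocysteine and a synthetase paralogue 4 rose and 4 fell in each line. All genes tested were split as well: 39.1% rose and 37.4% fell in EV cells, and 40.5% rose and 39.3% fell in NRF2 cells. Sepsecs and Pstk, consecutive enzymes that turn serine into selenocysteine on its tRNA, moved in opposite directions. Sepsecs rose by log2 0.46 ± 0.07 in EV and 0.61 ± 0.07 in NRF2 cells (edgeR adjusted p = 8.4e-06 and 2.6e-07). Pstk fell by -0.48 ± 0.08 and -0.79 ± 0.08 (2e-05 and 4.1e-08). Prorsd1, a relative of the editing domain of the proline enzyme, rose by 0.76 ± 0.10 and 0.82 ± 0.10 (1.4e-06 and 4.2e-07), and Tarsl2, a second threonine enzyme, rose by 0.37 ± 0.06 and 0.19 ± 0.06 (2.5e-05 and 0.0077) while Tars fell. Sepsecs and Tarsl2 were chosen for mention after their values were seen. Dtd1, which removes D-amino acids from tRNA, fell by -0.72 ± 0.07 and -0.91 ± 0.07 (6.2e-08 and 2.1e-09), and Dtd2, its relative, rose by 0.52 ± 0.09 and 0.43 ± 0.08 (2.5e-05 and 1.3e-04).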
